A study of Rattus norvegicus with 12 samples.

Results

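Ion channel genes were examined in lung RNA from male Wistar rats, each animal having its own RAE 230A array. The diabetic group was 7 rats injected at 8 weeks of age with streptozotocin, which kills pancreatic beta cells and so removes the source of insulin, and the normal group was 5 rats of the same strain given buffer by the same route at the same age. All 12 animals were 12 weeks old at collection, after 4 weeks with or without diabetes and an overnight fast, and no animals were pooled. The members were the genes whose symbol, on a probe set naming a single gene, starts with Kcn, with Scn and a digit, with Cacn, with Clcn, or with Trpc, Trpm or Trpv and a digit. This gave 132 genes of 10411 named on the array, and each was represented by its probe set of highest mean log2 signal over the 12 arrays. A mean signal above 170, taken on the log scale, was found for 30 of the 132 (22.7%), whereas 7036 of all 10411 genes (67.6%) had a probe set above that level. The signal is the brightness that MAS 5.0 computes for a probe set after each array has been scaled to a trimmed mean of 500, and it was compared only between animals for the same probe set. RNA came from the whole organ, a mixture of epithelial, vascular, stromal and blood cells, so fewer cells of a type and less RNA per cell cannot be told apart. The lung label was checked with surfactant protein C, made by alveolar type II cells, whose mean signal was 24347 in diabetic and 25682 in normal lung.

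Voltage-gated channels are membrane proteins whose pore opens when the membrane potential changes. The large pore-forming subunit of a sodium, calcium or potassium channel is accompanied by smaller auxiliary subunits that set its number at the surface and its speed. Inward rectifier and tandem-pore potassium channels hold the resting potential, the Clcn proteins of intracellular membranes exchange chloride for protons, and TRP channels are mainly cation channels opened by chemical, thermal or mechanical signals. In the lung, channels of smooth muscle set airway and vascular tone, channels of vascular muscle and neuroendocrine cells take part in oxygen responses, and epithelial channels move ions and fluid across the alveolar and airway surface.

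The members above the limit were spread unevenly over the subfamilies. Of the pore-forming voltage-gated potassium channel genes, 5 of 30 were above it, namely Kcnd3, Kcnh3, Kcnc4, Kcns3 and Kcnq1. The potassium channel auxiliary genes had 6 of 12 above it, comprising Kcne2, Kcne3, Kcnab1, Kcnab2, Kcnip3 and Kcnmb4. Inward rectifiers had 2 of 15 (Kcnj15 and Kcnj4), and tandem-pore potassium channels had 3 of 11 (Kcnk3, Kcnk1 and Kcnk6). All 5 calcium- or sodium-activated potassium channel genes, Kcnma1, Kcnn1, Kcnn3, Kcnn4 and Kcnt1, were below. Sodium channel genes had 2 of 12 above (Scn3b and Scn7a), calcium channel pore genes 1 of 10 (Cacna1c) and calcium channel auxiliary genes 3 of 14 (Cacnb2, Cacna2d1 and Cacng2). Chloride channel genes had 2 of 7 (Clcn3 and Clcn6) and genes with a TRP symbol had 6 of 16 (Trpm7, Trpm4, Trpc1, Trpv2, Trpv5 and Trpc4ap). Trpc4ap carries a matching symbol but encodes a protein that associates with TRPC4 and not a channel.

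The limit lay among members of similar signal. Kcnk3 was just inside with a geometric mean signal of 172.2, and Kcnj8, a pore subunit of ATP-sensitive potassium channels, was just outside with 168.7. Of the 30 members above the limit, 21 exceeded it on every one of the 12 arrays and 9 did not. Of the 102 below it, 86 exceeded it on no array and 16 on some, and 0 exceeded it on every array of either group. Members below the limit include Scn8a, a main sodium channel of neurons, and Cacna1d, Kcna5, Kcnb2, Kcnj2, Kcnj11, Clcn2, Trpc6 and Trpv4. Tested without a filter, 7 of these 102 had an unadjusted p under 0.05 in limma (Kcna1, Kcna6, Kcnab3, Kcnh4, Kcnj5, Kcnj8 and Kcnk2), beside 12.7% of all probe sets, and 0 passed after Benjamini-Hochberg adjustment. A signal below the limit does not show that a channel is absent. Among the members, 98 had only 1 probe set.

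No member above the limit passed the test between diabetic and normal lung. With limma and Benjamini-Hochberg adjustment over all 9520 probe sets tested, 0 of the 30 members reached an adjusted p of 0.05, against 16 of 9520 probe sets (0.168%), of which 9 were higher (0.0945%) and 7 lower (0.0735%) in diabetic lung. The smallest adjusted p of a member was 0.0552, for Kcnj15, and an unequal-variance test on the same values also passed 0 members. At an unadjusted p of 0.05, limma passed 9 of the 30 members (30%), against 16.4% of all probe sets, and the unequal-variance test passed 6. The 9 comprised 4 that were higher in diabetic lung (Kcnj15, Kcnip3, Trpm7 and Clcn3), beside 7.75% of all probe sets, and 5 that were lower (Scn3b, Kcnd3, Cacna1c, Cacna2d1 and Cacnb2), beside 8.68%. The share of higher genes among such members was 44.4%, and after quantile normalization it was 57.1%. The groups did not overlap for 1 member, Kcnj15, beside 2.04% of all probe sets. Kcnj15 was higher in diabetic lung, beside 0.924% of probe sets, and 0 members were lower without overlap, beside 1.11%. The median log2 difference, diabetic minus normal, was −0.02 over the 30 members and −0.01 over all probe sets tested, with 53.3% and 52.8% of values below 0. Within 0.2 of 0 on the log2 scale lay 16 of the 30 members, and the median standard error was 0.133 for members and 0.109 for all probe sets.

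**Figure D1:**
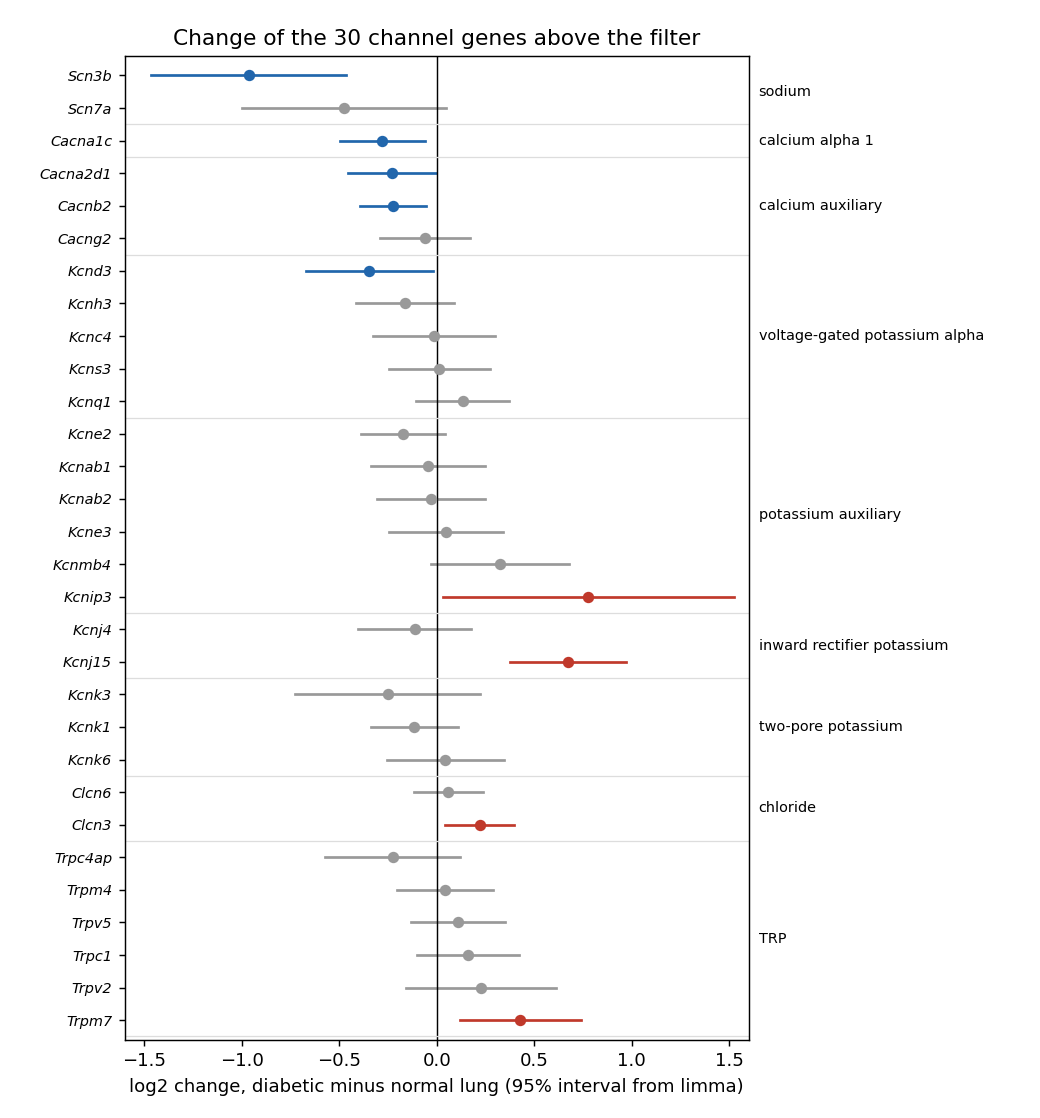
Log2 difference in signal, diabetic minus normal (horizontal axis), with its 95% confidence interval for each of the 30 members above the limit (rows), from limma. The values run from −0.96 for Scn3b to 0.78 for Kcnip3, and 0 members passed the adjusted threshold.

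Both sodium channel members above the limit had lower mean signals in diabetic lung. Scn3b encodes the beta 3 subunit, a single-pass membrane protein that modulates the pore-forming sodium channel subunits. Its signal in the diabetic animals was lowest at 164.0, had a median of 249.4 and was highest at 533.6, and the normal animals had 410.6, 625.3, 602.2, 519.5 and 541.8. Diabetic animals 1 to 4, 6 and 7 lay below every normal animal, and only diabetic animal 5 lay among the normal values. The mean was 294.8 ± 128 (SD, n = 7) in diabetic and 539.9 ± 84.1 (SD, n = 5) in normal lung, a log2 difference of −0.96 ± 0.235 (SE) with a 95% confidence interval of −1.46 to −0.46, and limma gave an adjusted p of 0.0780. Without diabetic animal 5 the difference was −1.12 and the adjusted p in limma was 0.0251, and without any other single animal the adjusted p was 0.0805 to 0.166. Scn3b was listed by the study on these same animals, so the lower signal here is not independent evidence of its direction.

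Scn7a encodes Nax, a relative of the voltage-gated sodium channels that senses the extracellular sodium level in the brain. Its signal ranged from 1139.3 to 4022.0 in diabetic animals, with a median of 2514.4, and from 2278.6 to 3698.0 in normal animals, with a median of 3250.2. The ranges overlapped, and diabetic animal 5 was above every normal animal. The log2 difference was −0.48 ± 0.246 (SE), and limma gave an adjusted p of 0.347. The other 10 sodium channel genes were below the limit: Scn1a, Scn2a, Scn3a, Scn4a, Scn8a, Scn9a, Scn10a and Scn11a, which encode pores, and Scn2b and Scn4b, which encode beta subunits.

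Markers of other cell types were read beside the sodium channels. The summed signal of 10 fibroblast markers was 12473 to 23769 in diabetic and 27190 to 28115 in normal lung, without overlap, and its lowest and highest diabetic values were those of animals 6 and 5, which also had the lowest and highest Scn3b. Of these 10 markers, 9 were above the limit, and 0 passed the adjusted threshold. At an unadjusted p of 0.05 in limma, 6 were lower and 1 higher in diabetic lung, beside 8.68% and 7.75% of all probe sets. The 6 lower were the matrix genes Fbln1, Col1a1, Col3a1, Col1a2, Mfap4 and Lum, of which the study had listed Col1a1 and Col3a1. Col3a1 and Mfap4, with normal means of 8739 and 8714, made up much of the sum. Pdgfra was higher, by 0.58 on the log2 scale, and Dcn and Tcf21 also lay above 0, at 0.19 and 0.15, so the markers did not share a direction. All 9 neuron markers on the array were below the limit. Their summed signal was 304.0 to 471.2 in diabetic and 480.3 to 599.4 in normal lung, without overlap. The sums of the other marker lists overlapped between the groups. These were smooth muscle, cardiac and skeletal muscle, Schwann cells, endothelium, alveolar type I and II cells, airway epithelium, macrophages and lymphocytes. Diabetic animal 6 had the lowest neuron and lymphocyte sums of all animals, 304.0 and 794.5, so low sums were not particular to fibroblasts. Its Schwann cell, airway and alveolar type II sums were the highest. Of the 6 Schwann cell markers on the array, 2 were above the limit, Prx and Egr2. Prx, with means of 1475 in diabetic and 1238 in normal lung, made up much of the Schwann cell sum. The part of these cell types in the sodium channel signals was not tested.

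The 3 subunits of the L-type calcium channel above the limit were each lower in the mean of diabetic lung, by small amounts. This channel carries the calcium current that drives smooth muscle contraction, and it is assembled from a pore, a beta subunit and an alpha 2 delta subunit. Cacna1c, the pore Cav1.2, had signals of 212.9 to 285.7 in diabetic animals, with a median of 271.0, and of 305.3, 328.2, 341.6, 274.0 and 345.7 in normal animals. Normal animal 4 lay among the diabetic values. The means were 263 ± 27.7 (SD, n = 7) in diabetic and 319 ± 29.7 (SD, n = 5) in normal lung, a log2 difference of −0.28 ± 0.102 (SE) with an adjusted p of 0.199 in limma.

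Cacnb2, the beta 2 subunit that brings the pore to the membrane, had signals of 448.2 to 569.6 in diabetic animals, with a median of 528.0, and of 621.8, 617.2, 554.1, 617.3 and 603.2 in normal animals. The groups overlapped only through normal animal 3. The means were 518 ± 45.6 (SD, n = 7) in diabetic and 603 ± 28.1 (SD, n = 5) in normal lung, and the log2 difference was −0.22 ± 0.0793 (SE), with an adjusted p of 0.189 in limma. A further probe set of Cacnb2 gave −0.17 ± 0.10 (SE) with an unadjusted p of 0.119.

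Cacna2d1, the alpha 2 delta 1 subunit that binds gabapentin, had signals of 192.3 to 242.6 in diabetic animals, with a median of 226.3, and of 265.8, 238.7, 223.7, 269.8 and 314.8 in normal animals. The ranges overlapped over normal animals 2 and 3. The means were 223 ± 18.4 (SD, n = 7) in diabetic and 263 ± 34.9 (SD, n = 5) in normal lung, and the log2 difference was −0.23 ± 0.106 (SE) with an adjusted p of 0.297 in limma. Cacng2, known as stargazin for its role in trafficking glutamate receptors, had a log2 difference of −0.06. The summed signal of 10 smooth muscle markers was 8694 to 12658 in diabetic and 9437 to 11653 in normal lung, with overlap, and its part in the calcium channel signals was not tested. The remaining 9 calcium channel pore genes, those of the P/Q, N, R and T types among them, were below the limit.

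Kcnj15 had the smallest p of the members. It encodes Kir4.2, an inward rectifier potassium channel that in rodent kidney sits in the basolateral membrane of tubule cells. The signal of diabetic animals 1 to 7 was 1358.2, 1819.0, 2120.9, 1741.5, 1468.4, 2294.5 and 1270.8, and that of normal animals 1 to 5 was 1051.8, 1118.2, 1251.8, 995.0 and 906.0. All 7 diabetic animals were above all 5 normal animals, although diabetic animal 7 and normal animal 3 were close. The means were 1725 ± 387 (SD, n = 7) in diabetic and 1065 ± 130 (SD, n = 5) in normal lung, a ratio of 1.62. The log2 difference was 0.67 ± 0.140 (SE) with a 95% confidence interval of 0.38 to 0.97 and an adjusted p of 0.0552 in limma. Without diabetic animal 7 it was 0.74 with an adjusted p of 0.0495 in limma, and without any other single animal the adjusted p was 0.0504 to 0.141. The mean of the gene's probe sets gave 0.44 with an adjusted p of 0.218, and the unequal-variance test gave an adjusted p of 0.162.

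The dimmer probe set of Kcnj15 above the limit averaged 238.0 ± 84.2 (SD, n = 7) in diabetic and 205 ± 74.9 (SD, n = 5) in normal lung. Its log2 difference was 0.21 ± 0.259 (SE) with an unadjusted p of 0.433 in limma, in the same direction as the brighter probe set and with a wider error. The other inward rectifier above the limit, Kcnj4, which encodes the strong rectifier Kir2.3, had a log2 difference of −0.11. The 13 below it include Kcnj1, the renal outer medullary channel ROMK, and Kcnj10 and Kcnj16, whose products form a heteromeric channel in kidney and glia.

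Among the pore-forming voltage-gated potassium channels above the limit, Kcnd3 had the smallest p. It encodes Kv4.3, which carries a fast inactivating A-type current. Its signal was 132.6 to 198.9 in diabetic animals, with a median of 160.5, and 151.0, 248.9, 207.6, 226.8 and 216.5 in normal animals. Normal animal 1 lay within the diabetic range and the other normal animals above it. The means were 165 ± 29.2 (SD, n = 7) in diabetic and 210 ± 36.5 (SD, n = 5) in normal lung, so that the diabetic mean itself was under the limit of 170. The log2 difference was −0.35 ± 0.153 (SE) with an adjusted p of 0.277 in limma. A second probe set of Kcnd3, below the limit, gave 0.29, the opposite direction, with means of 59.6 in diabetic and 56.3 in normal lung.

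The other pore-forming voltage-gated members above the limit did not reach an unadjusted p of 0.05. Kcns3, a silent subunit (Kv9.3) that conducts only together with Kv2 channels, had mean signals of 1203 ± 221 (SD, n = 7) in diabetic and 1179 ± 118 (SD, n = 5) in normal lung. Its log2 difference was 0.01 with a 95% confidence interval of −0.25 to 0.27. Kcnh3 (Kv12.2) had a log2 difference of −0.16, Kcnq1, a slow channel of heart and epithelia, one of 0.13, and Kcnc4 (Kv3.4) one of −0.01.

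Kcnip3 had the largest positive log2 difference of the 30 members and also a wide spread. It encodes KChIP3, a calcium-binding partner of Kv4 channels that is also known as the transcriptional repressor DREAM. Its signal was 201.1 to 571.6 in diabetic animals, with a median of 327.2, and 120.3, 385.6, 304.7, 309.0 and 80.6 in normal animals. Normal animals 1 and 5 were low, and normal animals 2, 3 and 4 lay within the diabetic range. The means were 366 ± 119 (SD, n = 7) in diabetic and 240.0 ± 132 (SD, n = 5) in normal lung, with a log2 difference of 0.78 ± 0.351 (SE) and an adjusted p of 0.286 in limma. Leaving out normal animal 5 brought the difference to 0.44 with an unadjusted p of 0.163 in limma, and leaving out normal animal 1 brought it to 0.59 with an unadjusted p of 0.130. A second probe set of Kcnip3, below the limit, gave −0.05.

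The other potassium channel auxiliary members above the limit did not reach an unadjusted p of 0.05. Kcnmb4, the beta 4 subunit of the large-conductance calcium-activated channel, had a log2 difference of 0.32 with an unadjusted p of 0.0699 in limma, while its pore gene Kcnma1 was below the limit. Kcne2 and Kcne3, small partners of Kcnq1 in epithelia, had log2 differences of −0.18 and 0.05. Kcnab1 and Kcnab2, cytoplasmic beta subunits of Kv1 channels, had −0.05 and −0.03.

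The tandem-pore potassium channels, which pass a background current that holds the resting potential, had 3 members above the limit, none with an unadjusted p under 0.05. Kcnk3 encodes TASK-1, an acid-sensitive channel of pulmonary artery smooth muscle. Its signal was 105.1 to 238.4 in diabetic animals, with a median of 155.9, and 180.1, 261.6, 200.5, 220.1 and 120.9 in normal animals, with wide overlap. The log2 difference was −0.25 ± 0.223 (SE) with a 95% confidence interval of −0.73 to 0.22, and limma gave an adjusted p of 0.611. Kcnk1 (TWIK-1) and Kcnk6 (TWIK-2) had log2 differences of −0.12 and 0.04.

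The start regions of the 22 members above the limit that matched a RefSeq promoter entry (GRCr8 assembly) had a median of 20.5 CpG dinucleotides in the 300 bases around the start. The median was 13.5 for the 76 matched members below the limit and 7.0 over all 27457 promoters. The GC box, GGGCGG read on both strands, was present in 59.1% of the matched members above the limit, 46.1% of those below and 34.9% of all promoters. The TATA box, TATAAA on both strands, was present in 4.55%, 7.89% and 14.3%. These are descriptions of letters in the window and were not tested. The windows printed here come from members with a low p and show the contrast within the set, with Kcnj15 and Cacna1c poor in CpG and Cacnb2 rich in it, with capitals marking the GC box. They lie at chr11:48070700-48070999 on the plus strand, with 3 CpG, at chr4:154051699-154051998 on the minus strand, with 4 CpG, and at chr17:82472965-82473264 on the plus strand, with 37 CpG and 2 overlapping GC boxes.
Kcnj15: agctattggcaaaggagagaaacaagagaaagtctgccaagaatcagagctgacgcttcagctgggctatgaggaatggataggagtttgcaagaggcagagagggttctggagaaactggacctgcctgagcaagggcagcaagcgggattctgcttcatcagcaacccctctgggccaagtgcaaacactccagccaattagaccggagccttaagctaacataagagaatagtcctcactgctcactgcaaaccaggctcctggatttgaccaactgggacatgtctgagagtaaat
Cacna1c: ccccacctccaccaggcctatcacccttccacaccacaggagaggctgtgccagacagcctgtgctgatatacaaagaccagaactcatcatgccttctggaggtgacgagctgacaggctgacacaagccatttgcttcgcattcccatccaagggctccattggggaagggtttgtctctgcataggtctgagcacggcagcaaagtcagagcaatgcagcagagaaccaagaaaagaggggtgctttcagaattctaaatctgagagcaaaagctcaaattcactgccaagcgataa
Cacnb2: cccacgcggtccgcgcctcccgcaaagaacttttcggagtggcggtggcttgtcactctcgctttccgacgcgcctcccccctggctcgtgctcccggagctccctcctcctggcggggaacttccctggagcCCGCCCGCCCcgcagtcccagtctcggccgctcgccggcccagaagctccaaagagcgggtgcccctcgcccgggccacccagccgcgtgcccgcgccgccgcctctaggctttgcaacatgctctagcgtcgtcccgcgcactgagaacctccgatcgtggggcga

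Clcn3 was slightly higher in diabetic lung. It encodes ClC-3, an exchanger of chloride and protons in endosomes and synaptic vesicles. Its signal was 812.4 to 1003.5 in diabetic animals, with a median of 818.6, and 653.3, 734.2, 823.7, 689.5 and 779.6 in normal animals. All diabetic animals were above normal animals 1, 2, 4 and 5, while normal animal 3 lay among them. The means were 857 ± 74.0 (SD, n = 7) in diabetic and 736 ± 68.2 (SD, n = 5) in normal lung, with a log2 difference of 0.22 ± 0.0822 (SE) and an adjusted p of 0.202 in limma. The other 2 probe sets of Clcn3 above the limit gave 0.35 ± 0.113 and 0.17 ± 0.166 (SE), the same direction. Clcn6, a late endosomal member of the family, had a log2 difference of 0.06, and Clcn1, Clcn2, Clcn4, Clcn5 and Clcn7 were below the limit.

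Trpm7 was the TRP gene of smallest p, and its probe sets disagreed. It encodes a cation channel fused to a protein kinase that takes part in magnesium uptake by cells. The brighter probe set had signals of 383.1 to 818.2 in diabetic animals, with a median of 569.5, and of 404.2, 415.9, 514.2, 430.8 and 369.2 in normal animals. Diabetic animal 6 lay among the low normal values and diabetic animal 3 below normal animal 3. The means were 584 ± 132 (SD, n = 7) in diabetic and 427 ± 53.9 (SD, n = 5) in normal lung, with a log2 difference of 0.43 ± 0.146 (SE) and an adjusted p of 0.175 in limma. The dimmer probe set averaged 448 ± 34.0 (SD, n = 7) in diabetic and 480 ± 38.4 (SD, n = 5) in normal lung, with a log2 difference of −0.10 ± 0.0815 (SE) and an unadjusted p of 0.239. The GAPDH 3' to 5' ratio, a measure of RNA integrity, was 1.10 to 1.30 in diabetic and 1.23 to 1.44 in normal lung. In diabetic animals 1 to 5 and 7 it was at most 1.17, below every normal animal. Only diabetic animal 6, at 1.30, lay among the normal values, so this ratio and the group can hardly be told apart. With the GAPDH ratio as a covariate the difference of the brighter probe set was −0.01. The same ratio of actin overlapped between the groups, at 1.77 to 2.85 in diabetic and 1.63 to 2.75 in normal lung, and was not used as a covariate.

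The remaining TRP members above the limit had overlapping groups. Trpv2, a channel of macrophages and smooth muscle, had a log2 difference of 0.23, Trpc1, a subunit of store-operated and receptor-operated channels, 0.16, and Trpv5, an epithelial calcium channel best known from kidney, 0.11. Trpm4, a cation channel opened by calcium inside the cell, had 0.04, and Trpc4ap had −0.23.

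The spread among animals of a group was compared without a test. The SD of log2 signal was larger in diabetic lung for 20 of the 30 members (66.7%), beside 53.9% of all probe sets tested. Its median over the members was 0.229 in diabetic and 0.195 in normal lung. Summarised per animal, the SD over members of the deviation from the normal mean was largest in diabetic animals 6 (0.605), 3 (0.527) and 2 (0.447), and lay between 0.211 and 0.321 in the normal animals, whose own values make up that mean. Diabetic animal 6 had the highest signals of Kcnj15, Kcnip3 and Clcn3 among all 12 animals and the lowest of Scn3b, Cacna1c, Kcnd3 and, among diabetic animals, Trpm7. Diabetic animal 6 also had the lowest mean correlation with its own group, 0.952, against 0.957 to 0.962 for the other diabetic arrays, and normal arrays had 0.947 to 0.958. Its 3' to 5' ratio of actin, 2.85, was the highest of all 12 arrays, and that of GAPDH, 1.30, the highest of the diabetic arrays. Without diabetic animal 6, 6 members had an unadjusted p under 0.05 in limma, all among the 9 found with it. The part of RNA quality in this animal's signals was not tested.

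**Figure D2:**
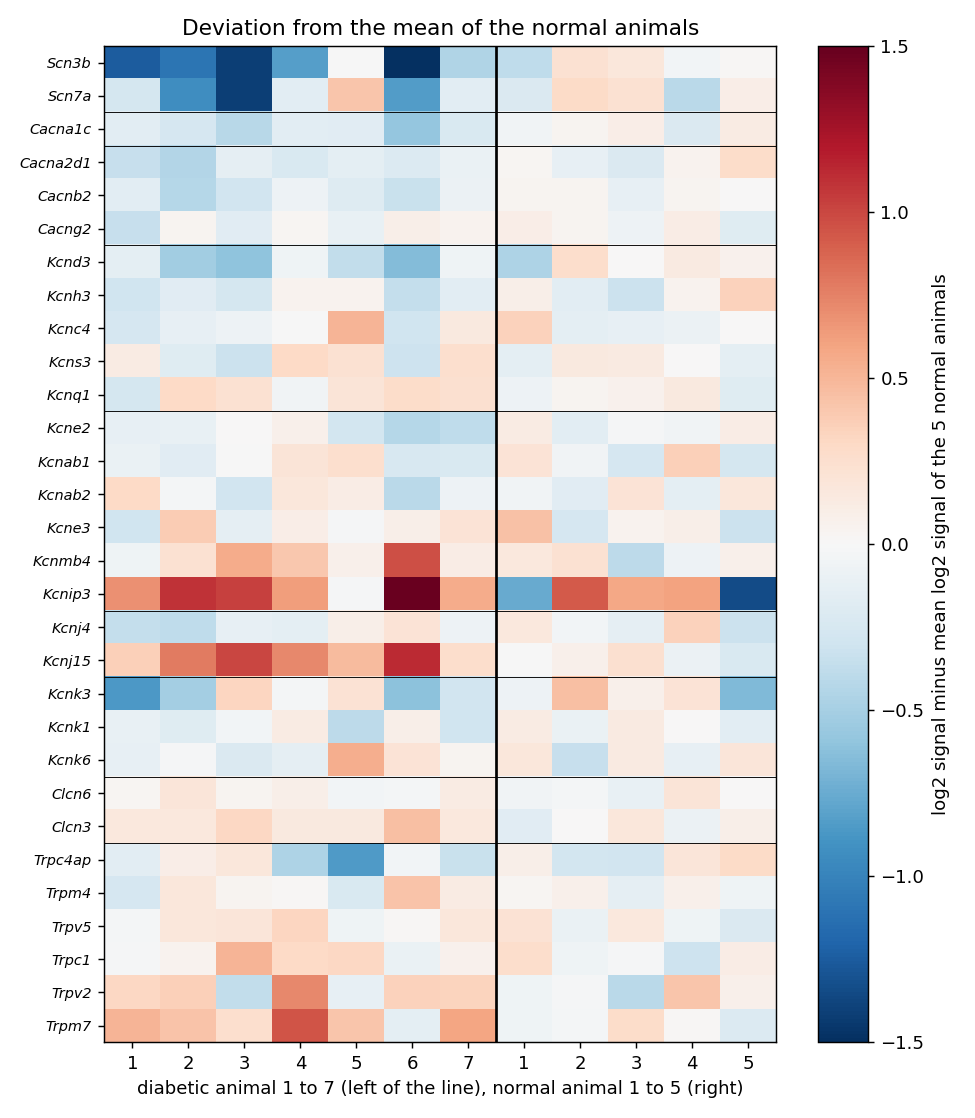
Log2 signal of each animal minus the mean of the normal animals for the 30 members above the limit (rows), with diabetic animals left of normal animals and colours limited to 1.5 on either side of 0. Diabetic animals 6, 3 and 2 have the strongest colours, with an SD over members of 0.605, 0.527 and 0.447.

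Other channels and pumps were read from 6 lists, and of 64 genes on the array 35 were above the limit. At an adjusted p of 0.05 in limma 1 of the 35 passed, beside 0.168% of all probe sets. At an unadjusted p of 0.05, 8 passed (22.9%), 4 higher and 4 lower in diabetic lung, beside 16.4% of all probe sets. The one that passed the adjusted threshold was P2rx1, a cation channel opened by extracellular ATP on smooth muscle, platelets and other blood cells. Its signal was 180.2 to 257.8 in diabetic animals, with a median of 210.5, and 314.5, 289.7, 309.1, 351.7 and 306.9 in normal animals. The groups did not overlap, and 1.11% of all probe sets were likewise lower without overlap. P2rx1 fell in diabetic lung by 0.57 on the log2 scale (SE 0.107, adjusted p 0.0483 in limma). The adjusted p in limma was 0.0616 to 0.128 without any single normal animal or any single one of diabetic animals 1 to 4, so the call depended on each of them, and the unequal-variance test gave an adjusted p of 0.0729. Its relative P2rx4, found in alveolar type II cells and macrophages, had a log2 difference of 0.51 with an adjusted p of 0.105 in limma. P2rx4 was listed by the study on these same animals, so its direction here is not independent evidence. Of the ligand-gated genes, 7 above the limit, P2rx1 and P2rx4 passed the unadjusted threshold, 1 in each direction, beside 7.75% of all probe sets higher and 8.68% lower.

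Of the epithelial sodium and acid-sensing channels, 4 were above the limit. At an unadjusted p of 0.05 in limma 1 was higher and 1 lower, beside 7.75% and 8.68% of all probe sets. Scnn1g, the gamma subunit of the epithelial sodium channel that clears alveolar fluid, had a log2 difference of 0.37 with an unadjusted p of 0.0431. Its alpha subunit Scnn1a had 0.34 with 0.0631, and the acid-sensing channel Asic1 had −0.28 with 0.0476. Among 6 sodium pump genes, 1 was higher and 1 lower at the unadjusted threshold, beside the same shares. Atp1b1, the beta 1 subunit, had 0.46 with an unadjusted p of 0.0452 and the pump regulator Fxyd1 had −0.57 with an adjusted p of 0.0793 in limma. Fxyd1 was also listed by the study on these same animals. So was Atp1b3, the beta 3 subunit, as higher in diabetic lung. Here Atp1b3 had a log2 difference of 0.05 with an unadjusted p of 0.543 in limma. Among 9 genes of calcium release and storage, 1 passed the unadjusted threshold, the calcium pump Atp2a3 with −0.35. Among 8 chloride channel genes outside the Clcn family, 1 passed, Clic1 with 0.23. Both are smaller shares than the 16.4% of all probe sets. The TRP-related Mcoln1 had −0.01.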

How the data were processed

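Lung RNA of 7 diabetic and 5 normal rats was read on 12 RAE 230A arrays. The deposited values are linear intensities, 1 per probe set, which the authors obtained with MAS 5.0, setting the trimmed mean of every array to 500. Array medians were 252.7 to 265.6 in diabetic and 259.6 to 272.0 in normal lung. Before log2 transformation the only intensity not above 0 was set to 0.1. After 57 control probe sets and the 40% of lowest mean log2 signal (a limit of 170) were left out, 9520 probe sets entered a two-sided moderated test (limma 3.58.1 under R 4.3.3, lmFit followed by eBayes with trend) at a Benjamini-Hochberg adjusted p of 0.05. limma was used because BAMarray, named in the methods, was not run here. The fit was tested on simulated data.

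The 312 probe sets naming several genes were not used for members, by the rule, and 1 of them named a channel gene among its genes. Values by animal are given for members with an unadjusted p under 0.05, Scn3b, and the member above the limit of smallest p in each subfamily. From each related list no more than 3 genes are named, by p, except that Atp1b3 is named because the study listed it. Scn7a, P2rx1 and the promoters printed were chosen after their values were seen. The members and lists were chosen with earlier results of these data known. The number of animals limits the precision. Alternatives changed the filter, the scaling, the test, the intensity trend and the probe sets of a gene, added a pseudocount of 64, array weights, a replicate block or the GAPDH ratio, or left out each animal. matplotlib 3.10.9 in python 3.11.15 drew the figures.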

Additional observations from a re-analysis of the deposited data

Results flagged for a closer look

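In 2 of 60 groups of values examined (the 30 members in each group of animals), 1 animal lay far from the others of its group, and chance gives such a gap in about 1 in 20 groups, or 3 of 60. Cacnb2 in normal lung had its lowest signal in normal animal 3, 554.1, against 603.2 to 621.8 in the other normal animals, a gap of 0.725 of the group's range. Kcnc4 in normal lung had its highest signal in normal animal 1, 228.7, against 162.6 to 179.8 in the other normal animals, a gap of 0.74 of the range.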

How the results depend on the processing

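The 0 members past the adjusted p became 1 with the 60% of lowest signal left out (Kcnj15), 1 with array weights (Scn3b), 1 with the replicate number as a block over animals 1 to 5 of each group (Kcnj15), 1 in those animals without the block (Kcnj15, added after seeing the data), 3 with the GAPDH ratio as a covariate (Kcnj15, Scn3b and Cacna1c), and 0 to 1 with an animal left out (Scn3b without diabetic animal 5, Kcnj15 without diabetic animal 7). The 9 members past the unadjusted p became 15 without a filter (8 shared), 4 with the 60% filter, 5 with the replicate block, and 6 to 9 with an animal left out. The 16 probe sets past the adjusted p became 25 after quantile normalization, 7 without a filter, 32 with the 60% filter, 9 without the intensity trend, 80 with array weights, 10 with the replicate block, 288 with the GAPDH covariate, 0 with the unequal-variance test, and 2 to 30 with an animal left out. The 1 gene of the related lists became 0 without a filter, with the 60% filter, with the replicate block and with the unequal-variance test, 2 with array weights (P2rx1 and Fxyd1), 2 in animals 1 to 5 without the block (P2rx1 and P2rx4), 2 with the GAPDH covariate (Atp1b1 and Scnn1a, both higher, while P2rx1 had an adjusted p of 0.0960 in limma), and 0 to 2 with an animal left out. The number of members above the limit was 21 to 32 over other definitions.

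The Scn3b difference was −0.95 with array weights (adjusted p 0.0434 in limma) and −1.62 with the GAPDH covariate (0.0200). It was −1.12 to −0.84 with an animal left out, and its adjusted p ranged from 0.0200 to 0.185 over all alternatives in which it was tested. It was below the 60% filter. Trpm7 reversed, at −0.011, with the GAPDH covariate, which gave −0.62 for Cacna1c, 0.98 for Kcnj15, −0.60 for Kcnd3 and 1.45 for Kcnip3. Kcnj15 ran from 0.44 to 0.98, with an adjusted p of 0.0255 to 0.218. The GAPDH ratio nearly separated the groups, except for diabetic animal 6, and the cause of these shifts was not tested. Same-numbered animals did not deviate together: their correlations were −0.123 to 0.0384 over 5 pairs, and 1 of 5 correlated best with its own number.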
